A study of Mus musculus with 6 samples.

Results

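MicroRNAs known chiefly from neurons and glia were followed in a blood-forming cell line. The 7 hairpin names miR-9, miR-124, miR-128, miR-129, miR-138, miR-218 and miR-219a were taken with every genomic copy and both arms of each hairpin, which gave 19 of the 1915 mature microRNA names measured. "Neural-type" refers to where these microRNAs are best known and was not a property read from these libraries. The cells were mouse iBN cells, described by the labels as granulocyte-macrophage progenitors, kept in suspension in medium with GM-CSF and 10% fetal bovine serum. All of them carried an inducible PU.1 system, PU.1 being the transcription factor that directs myeloid and B lymphoid development. Induced cells had received 1000 ng/ml doxycycline for 72 hours (n = 3 libraries), and uninduced cells had not (n = 3 libraries). Each group held trials 1, 2 and 3. Cells that received the drug but lacked the inducible system were not analysed here, so an effect of doxycycline and an effect of PU.1 cannot be told apart. Nothing in the labels states whether a trial is its own culture, and the p-values below reflect only how these 6 libraries vary, which may be technical variation.

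A microRNA hairpin is cut by Drosha and Dicer into a duplex, and the strand that is loaded into an Argonaute protein pairs with target messages mainly through its seed, bases 2 to 8 from the 5′ end. miR-9 and miR-124 are abundant in neural progenitors and neurons, where miR-124 represses non-neuronal messages. miR-128 and miR-138 are brain-enriched and act at synapses, miR-129 acts on neuronal excitability, miR-218 is high in motor neurons, and miR-219 promotes the maturation of oligodendrocytes. Many of these microRNAs are made from several hairpins with the same dominant arm, so that reads of that arm do not name the gene that was transcribed. The opposite arm usually differs between the copies.

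The mature sequences are shown because they name what was counted and which members share a seed. Sequences were found for 15 of the 19 names in RefSeq's table for GRCm38.p6, and the seed is in capitals. The prefix mmu- (mouse) is left off in the rest of the text.
mmu-miR-218-5p: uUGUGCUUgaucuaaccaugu
mmu-miR-129-5p: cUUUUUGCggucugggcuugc
mmu-miR-129-2-3p: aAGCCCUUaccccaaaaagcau
mmu-miR-9-5p: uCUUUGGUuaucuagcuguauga
mmu-miR-128-3p: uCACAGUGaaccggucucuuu
mmu-miR-128-1-5p: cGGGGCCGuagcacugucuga
mmu-miR-128-2-5p: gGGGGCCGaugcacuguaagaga
mmu-miR-138-5p: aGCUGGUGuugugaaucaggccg
mmu-miR-219a-5p: uGAUUGUCcaaacgcaauucu
mmu-miR-219a-1-3p: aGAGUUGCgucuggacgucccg

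The 5p arms of the miR-128 copies have the same seed, and the other 8 sequences printed have 8 different seeds. Outside the members, the seed of miR-218-5p was shared by miR-7002-3p and that of miR-218-1-3p by miR-496b, and both of these had 0 reads in all 6 libraries. Among 1623 names of the count table with a known sequence, no other shared the seed of any of the 15 members with a sequence. Members without a sequence could not be searched.

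With 1 entry kept per name, the induced libraries held 11379870, 9089319 and 13946613 reads and the uninduced libraries 9162211, 8697384 and 11714847. The 8 blood-cell microRNAs listed as markers were all present and summed to 206596 to 256247 CPM (counts per library size, scaled with TMM factors) in the induced and 198278 to 258340 CPM in the uninduced libraries. Of the lists of other tissues, the muscle list (1 of 5 names at 0 reads throughout) stayed at or under 0.441 CPM and liver miR-122-5p at or under 0.224 CPM in every library. Erythroid markers (1 of 3 at 0) summed to 37.5 to 40.1 CPM induced and 22.9 to 36.5 CPM uninduced. Nearly all of that was miR-486a-5p, with means of 38.4 CPM induced and 30.3 CPM uninduced, against 0.215 and 0.303 CPM for miR-451a. Stromal markers (1 of 5 at 0) summed to 145 to 215 CPM induced and 230 to 270 CPM uninduced. The 7 epithelial markers were all detected, at 81.1 to 101 CPM induced and 32.2 to 39.8 CPM uninduced. The 3 microRNAs of the sensory miR-183 cluster summed to 7485 to 9111 CPM induced and 5837 to 8471 CPM uninduced. In the test described below, 3 of 5 tested epithelial names were called higher and 1 of 3 tested stromal names lower. No tested blood-cell, erythroid or sensory name was called. Of all 525 tested names, 3.43% were called higher and 2.67% lower. The part of these other cell type markers in the results on the neural-type members was not tested.

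The 19 members ranged from silent to moderately abundant. In total they took 0.0486%, 0.0400% and 0.0411% of the reads of induced trials 1, 2 and 3, and 0.0448%, 0.0498% and 0.0411% of the uninduced ones. Their summed level was 429 CPM ± 26.8 in induced cells and 454 CPM ± 24.4 in uninduced cells (SD, n = 3 each). miR-128-3p alone gave 76.3% of the 28147 member reads, and together with miR-128-1-5p and miR-138-5p 93.4%. The neural-type pool of these cells was thus mostly miR-128.

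**Figure D1:**
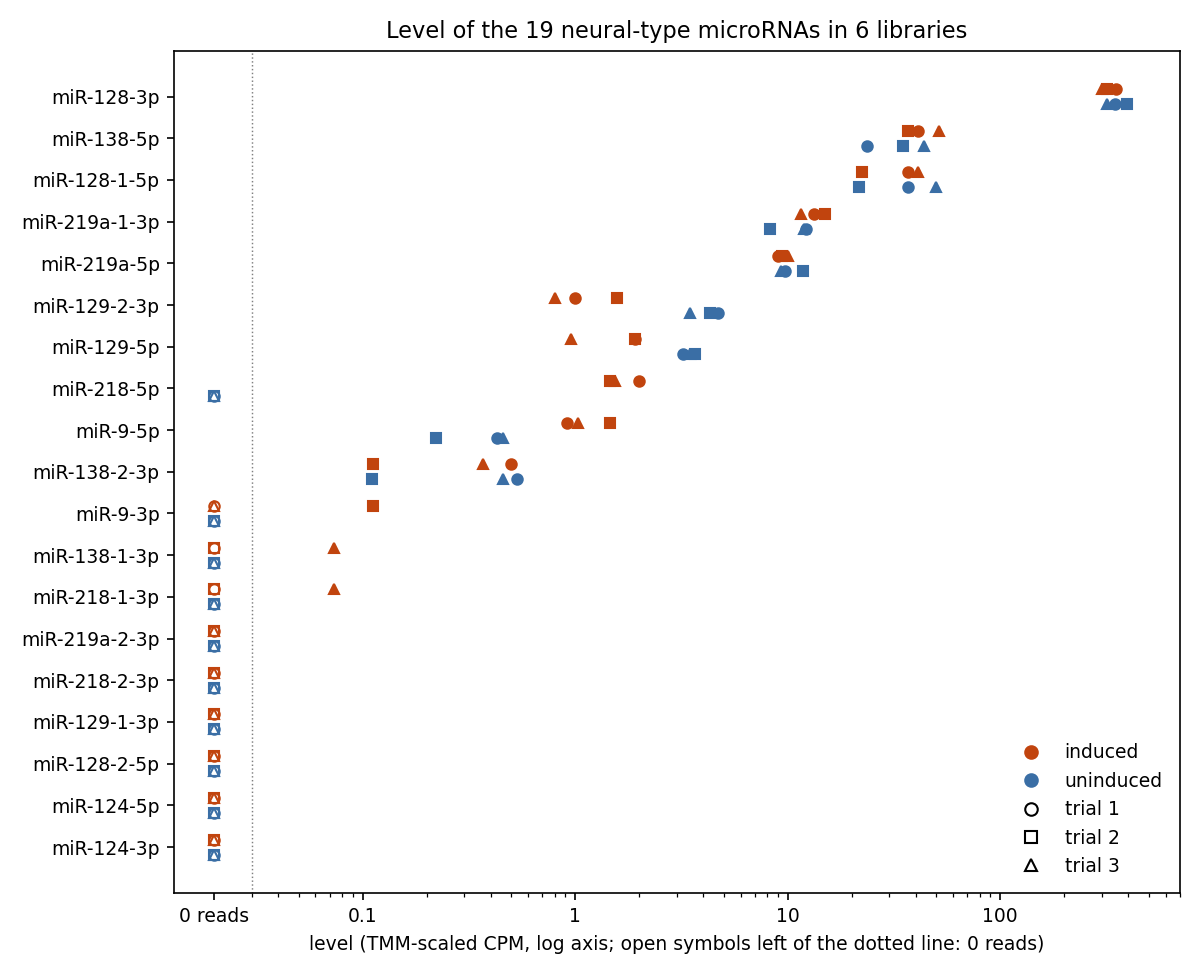
Level of each of the 19 members in TMM-scaled CPM on a log axis, with 1 symbol per library, the induced libraries drawn above the uninduced ones and the trial given by the shape of the symbol. Open symbols on the left mark libraries with 0 reads; 6 members had 0 reads in all 6 libraries, and miR-218-5p had reads in the 3 induced libraries only.

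Both arms of miR-124 were at 0 reads in every library, and so were miR-128-2-5p, miR-129-1-3p, miR-218-2-3p and miR-219a-2-3p. With 3 counts taken as the limit of a count of 0, absence over all 63990244 reads allows a level of up to 0.0469 CPM. Like the other limits and intervals given here, this limit covers counting error only, because no molecular identifiers are described. Within a group the limit was 0.0872 CPM for induced and 0.101 CPM for uninduced cells. Absence of a name was common in this table, as 40.1% of the 1915 names had 0 reads throughout. Another 3 members, miR-9-3p, miR-138-1-3p and miR-218-1-3p, had 1 read each, all in induced libraries.

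Among the members with reads, the order by mean level over the 6 libraries was miR-128-3p (339 CPM, rank 107 of 1915), miR-138-5p (38.6 CPM, rank 228) and miR-128-1-5p (34.7 CPM, rank 248). Next came miR-219a-1-3p (12.0 CPM, rank 313), miR-219a-5p (9.88 CPM, rank 325), miR-129-2-3p (2.65 CPM, rank 429) and miR-129-5p (2.52 CPM, rank 433). miR-218-5p (0.832 CPM), miR-9-5p (0.751 CPM) and miR-138-2-3p (0.347 CPM) followed. The library ranges of miR-138-5p and miR-128-1-5p overlapped, as did those of the arms of miR-219a and those of the arms of miR-129, so the order inside each of these pairs is not settled. Adapter ligation favours some small RNA ends over others, and levels of different microRNAs are therefore compared here only as read levels.

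Of the 7 tested members with reads in both groups, 1 passed the test: miR-129-2-3p was lower in induced cells. The other 6 did not pass. The test was edgeR's quasi-likelihood test on all 525 names that passed its filter on low counts, two-sided, with Benjamini-Hochberg adjustment at 0.05. It called 32 names, or 6.10% of those tested, with 3.43% higher and 2.67% lower. miR-218-5p was also among the names called, but with 0 uninduced reads it entered the test only through the induced libraries where it is present. The filter thus fixed its direction, and its call is not counted as a test result. Of the 11 members below the filter, 6 had no reads and 5 had 1 to 49. The median log2 change was -0.11 over the 7 members and 0.02 over all 525 names. Groups did not overlap for 2 of the 7, both lower, against 27.6% of all tested names (16.0% higher and 11.6% lower). These counts are too small to set the members apart from the rest of the table.

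miR-218-5p appeared with induction. It had 24, 13 and 21 reads in the induced libraries of trials 1, 2 and 3, against 0, 0 and 0 reads in the uninduced ones. The corresponding levels in induced cells were 1.99, 1.46 and 1.54 CPM, a mean of 1.66 CPM ± 0.29 (SD, n = 3), with none detected in uninduced cells. All induced libraries thus lay above all uninduced libraries. Against a floor of 3 counts for the whole uninduced group, miR-218-5p was 16.6-fold higher per read counted in induced cells. That ratio takes the induced reads as observed, without their counting error, and is no lower limit. The exact 95% interval of the induced level of miR-218-5p, from the summed reads, was 1.28 to 2.18 CPM before scaling. It bounds miR-218-5p as present at a low level. No p-value is given for it, for the reason stated above. Of all names, 6 had 0 uninduced and at least 10 induced reads, and 0 showed the reverse.

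The hairpins of miR-218 lie in introns of the genes for the axon guidance ligands Slit2 (chr5:48223942-48224051, plus strand) and Slit3 (chr11:35616816-35616925, plus strand), each on the strand of its host in GENCODE M21. They are printed to show where the copies differ, with the annotated arms in capitals.
Mir218-1: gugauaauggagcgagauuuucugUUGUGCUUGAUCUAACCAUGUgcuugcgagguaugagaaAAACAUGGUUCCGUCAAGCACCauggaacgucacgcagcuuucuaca
Mir218-2: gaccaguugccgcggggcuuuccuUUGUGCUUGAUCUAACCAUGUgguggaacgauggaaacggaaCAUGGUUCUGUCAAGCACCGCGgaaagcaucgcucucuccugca

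The 5p arm is identical in both, and the table holds 2 entries for it, with 58 and 56 reads. The opposite arms differ, but miR-218-1-3p had 1 read, in induced trial 3, and miR-218-2-3p had 0. The 58 reads therefore cannot be assigned to the Slit2 or the Slit3 copy at this depth.

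**Figure D2:**
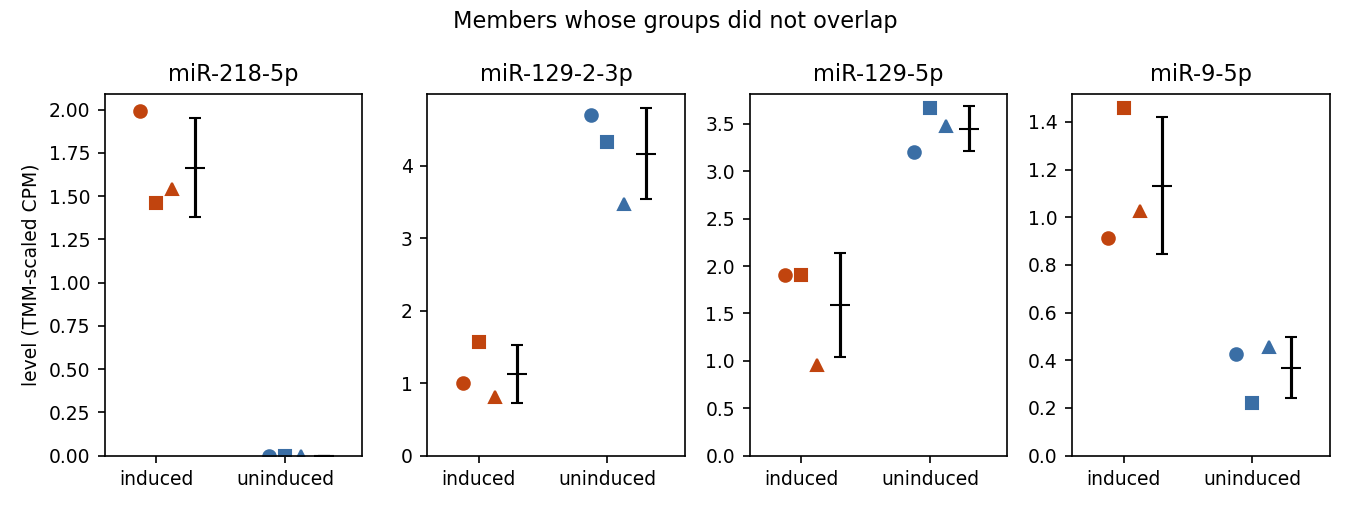
Level in TMM-scaled CPM of the 4 members whose groups did not overlap. Symbols give trials 1 (circle), 2 (square) and 3 (triangle), with the mean and SD (n = 3) beside them. Of all tested names, 27.6% had groups that did not overlap. miR-9-5p was below the filter, and the call of miR-218-5p is not counted as a test result. miR-218-5p and miR-9-5p are higher in the induced libraries and both arms of miR-129 are lower; each panel has its own axis, which starts at 0.

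miR-129-2-3p moved the other way. It had 12, 14 and 11 reads in induced trials 1, 2 and 3, against 44, 39 and 38 reads in the uninduced libraries. Its level was 0.997, 1.57 and 0.808 CPM in induced cells and 4.70, 4.33 and 3.48 CPM in uninduced cells. The highest induced library stood below the lowest uninduced one, and every trial showed the same direction, with log2 differences of -2.24, -1.47 and -2.11. The mean was 1.12 CPM ± 0.40 induced and 4.17 CPM ± 0.63 uninduced (SD, n = 3 each). Both arms reached the filter's limit in all 3 uninduced and in 2 of the induced libraries. The fitted log2 change was -1.92 (SE 0.30, edgeR adjusted p = 0.00444). From the summed reads, 37 induced and 121 uninduced, the ratio per read counted was 0.263 with an exact 95% interval of 0.177 to 0.383.

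miR-129-5p, the arm usually studied, had a smaller fitted change and missed the threshold. It had 23, 17 and 13 reads in induced trials 1, 2 and 3 and 30, 33 and 38 reads in the uninduced ones. That made 1.91, 1.91 and 0.955 CPM in induced cells, against 3.20, 3.67 and 3.48 CPM in uninduced cells, again without overlap. The log2 change was -1.14 (SE 0.30, edgeR adjusted p = 0.055). With the trial as a block, which takes out differences shared by the libraries of a trial, the same test gave -1.15 (SE 0.29) and an edgeR adjusted p of 0.0137, past the threshold. The blocked fit called 114 names in all, 21.7% of those tested, with 10.7% higher and 11.0% lower, and among the 7 members both arms of miR-129 were lower. The ratio of summed reads, 53 induced and 101 uninduced, was 0.451 with an exact 95% interval of 0.317 to 0.635.

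The 3p reads of miR-129 were all counted on a single hairpin. In GRCm38 the Mir129-2 copy lies at chr2:94241364-94241453 on the minus strand, in an intron of the long noncoding gene Mir670hg on the same strand, and the Mir129-1 copy at chr6:29022619-29022691 on the plus strand, overlapping an exon of the noncoding gene Gm3294. The hairpins are printed to show the shared 5p arm and the 3p arms, with the arms that RefSeq annotates in capitals.
Mir129-2: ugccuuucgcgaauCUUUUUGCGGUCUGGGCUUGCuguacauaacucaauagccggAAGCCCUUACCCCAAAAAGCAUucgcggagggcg
Mir129-1: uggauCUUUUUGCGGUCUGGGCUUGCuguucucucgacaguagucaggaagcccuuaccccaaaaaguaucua

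Over the 22 bases of miR-129-2-3p, the matching window of the Mir129-1 hairpin differs by the single substitution C20U, counted from 1 at the 5′ end, in capitals below.
miR-129-2-3p: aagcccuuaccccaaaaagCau
Mir129-1 window: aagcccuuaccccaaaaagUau

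All 158 reads of the 3p arms were counted for miR-129-2-3p and 0 for miR-129-1-3p, which allows miR-129-1-3p a share of up to 1.90%. A near-identical pair such as this can be split wrongly by an aligner that tolerates a mismatch, and the mismatch setting is not given in the sources used here. miR-129-5p had the same 53 induced and 101 uninduced reads under both of its entries, so its reads name no copy.

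The strand opposite to Mir129-2 carries another annotated hairpin, Mir129b (chr2:94241378-94241442, plus strand), which is no member. miR-129b-5p had 4, 7 and 4 reads in the induced libraries and 1, 0 and 0 reads in the uninduced ones. The ratio per read counted was 12.9 (exact 95% interval 1.98 to 543). miR-129b-3p had 4 reads induced and 1 uninduced. These names did not pass the filter and were not in the main test. Tested without a filter, miR-129b-5p had a log2 change of 3.31 (SE 1.19, edgeR adjusted p = 0.0942). The change of miR-129b-3p was 1.51 (SE 1.62, edgeR adjusted p = 0.718), so neither passed. Read counts in induced cells were higher for the antisense hairpin and lower for Mir129-2. The antisense difference rests on few reads and did not pass. The use of strand in counting is likewise not stated there, so reads from the 2 strands may not be fully separated.

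miR-9-5p, a regulator of neural progenitor growth, was low in every library. It had 11, 13 and 14 reads in induced trials 1, 2 and 3, against 4, 2 and 5 reads in the uninduced libraries. Its level was 0.914, 1.46 and 1.03 CPM in induced cells and 0.427, 0.222 and 0.458 CPM in uninduced cells, without overlap. The ratio of summed reads was 2.97 with an exact 95% interval of 1.49 to 6.44, which covers counting error alone. Its place just under the filter left it without a test in the comparison above. The filter asks for 0.974 unscaled CPM in 3 libraries, and miR-9-5p reached 1.43, 1.00 and 0.967. Tested without a filter, its log2 change was 1.54 (SE 0.56, edgeR adjusted p = 0.0965). DESeq2 gave 1.57 (SE 0.79, adjusted p = 0.306).

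The miR-9 hairpins lie on chromosomes 3, 7 and 13, and the 3 entries of miR-9-5p held identical counts in every library, that is, the same reads entered 3 times. When the entries were added up, the tripled counts passed the filter and the test, with a log2 change of 1.57 (SE 0.33, edgeR adjusted p = 0.0262), a call that repeats reads and is not taken here as support. miR-9-3p, which was also annotated on all 3 hairpins, had 1 read in induced trial 2 and none elsewhere.

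miR-128, the most abundant of the group, did not pass the test in either arm. miR-128-3p had 353, 317 and 302 CPM in induced trials 1, 2 and 3, against 347, 397 and 318 CPM in uninduced ones. The groups overlapped, and the log2 change was -0.13 (SE 0.14, edgeR adjusted p = 0.665). miR-128-1-5p had 36.8, 22.3 and 41.0 CPM in induced and 36.8, 21.8 and 49.8 CPM in uninduced cells, a log2 change of -0.11 (SE 0.30, edgeR adjusted p = 0.853). Its sign turned when induced replicate 2 (0.09) or uninduced replicate 3 (0.19) was left out. Trial 2 was the lowest and trial 3 the highest for this arm in both groups.

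The hairpin Mir128-1 lies in an intron of R3hdm1 (chr1:128202361-128202430, plus strand) and Mir128-2 in an intron of Arpp21 (chr9:112118636-112118711, minus strand), each on the strand of its host. Their 5p arms, printed above, share a seed but differ after it. All 2285 reads of these arms belonged to miR-128-1-5p and 0 to miR-128-2-5p. That allows miR-128-2-5p a share of up to 0.131% of the 5p reads. It does not bound the share of the Arpp21 copy in miR-128-3p. The shared arm miR-128-3p had 21479 reads under 1 entry and 21101 under the other, so most of its reads were entered for both copies. The 3p reads themselves do not name the copy.

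**Figure D3:**
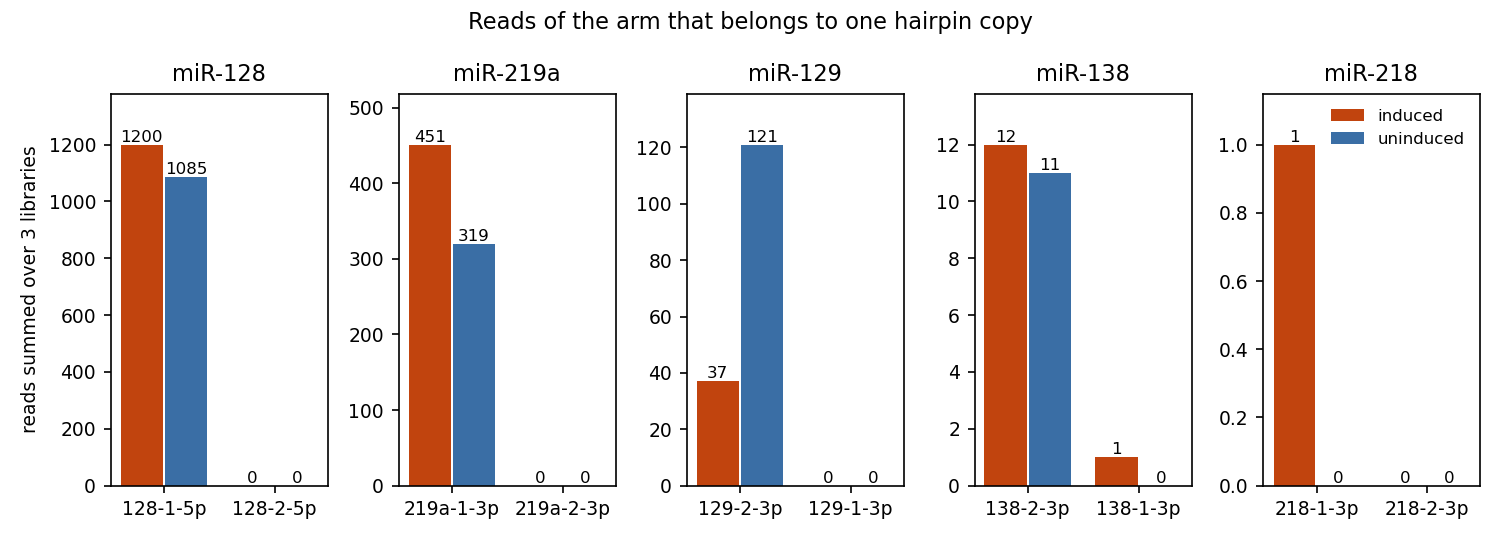
Reads, summed over the 3 induced or the 3 uninduced libraries, of the arm that differs between the hairpin copies of 5 microRNAs; each panel has its own axis, which starts at 0, and the number above a bar is its count. For miR-128, miR-219a and miR-129 all reads of this arm fell on 1 of the 2 copies, 2285, 770 and 158 reads in all.

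miR-138-5p was the second most abundant member. It had 41.1, 36.8 and 51.6 CPM in induced trials 1, 2 and 3, and 23.6, 35.0 and 43.8 CPM in uninduced ones. Each trial was higher in the induced library, by 0.80, 0.07 and 0.24 on the log2 scale, but the groups overlapped. The fitted log2 change was 0.34 (SE 0.23, edgeR adjusted p = 0.431), and with the trial as a block 0.36 (SE 0.13, edgeR adjusted p = 0.0701), so neither fit passed.

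Of the opposite arms of miR-138, miR-138-2-3p had 12 reads induced and 11 uninduced, and miR-138-1-3p had 1 and 0. The Mir138-2 arm thus held 95.8% of 24 copy-specific reads (exact 95% interval 78.9% to 99.9%). Mir138-2 lies at chr8:94324311-94324381 on the plus strand, over an exon of the noncoding gene C78859. Mir138-1 (chr9:122682876-122682974, plus strand) overlaps an exon of the pseudogene Gm47135. The 2 entries of miR-138-5p held 2540 and 2524 reads, which do not separate the copies.

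Neither arm of miR-219a passed. miR-219a-5p had 9.05, 9.42 and 9.99 CPM in induced trials 1, 2 and 3, against 9.71, 11.8 and 9.34 CPM in uninduced ones, a log2 change of -0.11 (SE 0.18, edgeR adjusted p = 0.766). miR-219a-1-3p had 13.3, 15.0 and 11.5 CPM in induced and 12.2, 8.22 and 12.0 CPM in uninduced cells, a log2 change of 0.29 (SE 0.21, edgeR adjusted p = 0.46). Both arms had overlapping groups. The sign of the miR-219a-5p change was not stable, at 0.04 with its lowest entry and 0.01 without uninduced replicate 2.

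**Figure D4:**
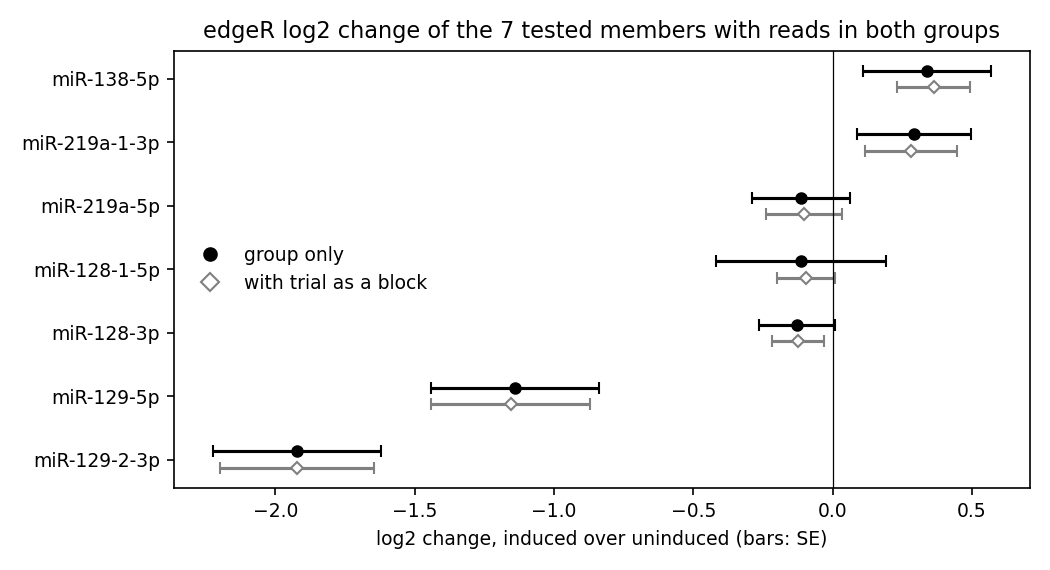
Log2 change, induced over uninduced, of the 7 tested members with reads in both groups, from edgeR with the group alone (filled) and with the trial as a block (open); bars are SE. Both arms of miR-129 lie below 0 by several SE in both fits, and the other 5 lie between -0.13 and 0.36.

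All 770 reads of the miR-219a 3p arms belonged to miR-219a-1-3p and 0 to miR-219a-2-3p. That allows miR-219a-2-3p a share of up to 0.390% of the 3p reads. It does not bound the share of Mir219a-2 in miR-219a-5p. The entries of miR-219a-5p also differed, by more than those of the other shared arms. One had 628 reads and the other 325, and the table does not name the precursor of either. Mir219a-1 lies at chr17:34024983-34025092 and Mir219a-2 at chr2:29845631-29845727, both on the minus strand, and the first overlaps an exon of the noncoding gene Gm26940. The hairpins are printed because the base that follows the shared 5p arm differs between them, c in Mir219a-1 and u in Mir219a-2, with the arms that RefSeq annotates in capitals.
Mir219a-1: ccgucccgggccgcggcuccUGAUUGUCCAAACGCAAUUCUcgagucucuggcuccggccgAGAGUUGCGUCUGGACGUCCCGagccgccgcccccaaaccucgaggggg
Mir219a-2: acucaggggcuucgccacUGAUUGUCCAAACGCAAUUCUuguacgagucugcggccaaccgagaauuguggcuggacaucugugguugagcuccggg

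As with miR-129, both hairpins have an annotated antisense partner, Mir219c opposite Mir219a-1 and Mir219b opposite Mir219a-2. Their arms were rare. miR-219c-3p had 29 reads induced and 27 uninduced, miR-219c-5p 24 and 8, miR-219b-3p 26 and 22, and miR-219b-5p 9 and 1. Of these only miR-219c-3p passed the filter, with a log2 change of -0.15 (SE 0.53, edgeR adjusted p = 0.88).

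The arms of a hairpin were also set against each other, as the 5p share of the reads of both arms. For miR-128 this share was 9.45%, 6.57% and 12.0% in induced trials 1, 2 and 3, against 9.60%, 5.21% and 13.5% in uninduced ones. Between the groups of a trial it differed by 0.149 to 1.58 percentage points, while between trials it spanned 5.39 points in induced and 8.33 points in uninduced cells. The arm balance of miR-128 thus varied by trial more than by induction. miR-138 was almost wholly on its 5p arm, at 99.2% ± 0.45 in induced and 98.8% ± 0.96 in uninduced cells (SD, n = 3 each). For miR-219a the 5p share was 41.8% ± 4.10 in induced and 49.0% ± 8.55 in uninduced cells (SD, n = 3 each), within the spread of the libraries.

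For miR-129 the 5p share was 65.7%, 54.8% and 54.2% in induced trials 1, 2 and 3 and 40.5%, 45.8% and 50.0% in uninduced ones. The groups did not overlap, the 3p arm being the smaller part in induced cells, but the exact 95% intervals of the summed shares, 48.0% to 69.2% induced and 38.8% to 52.3% uninduced, did. The family fell under the minimum of 100 reads per group set for such shares, and this one was added after its counts were seen.

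**Figure D5:**
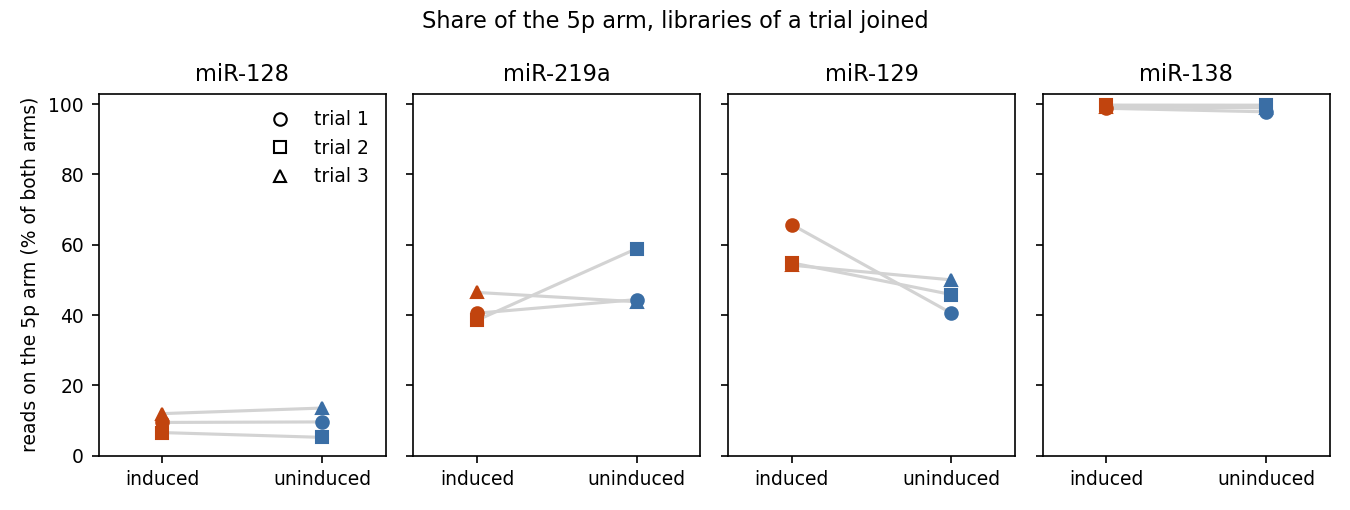
Reads on the 5p arm as a percentage of the reads on both arms, per library, for 4 microRNAs; grey lines join the induced and the uninduced library of a trial. The miR-128 lines are nearly level at 5.21% to 13.5%, while in the miR-129 panel all induced points lie above all uninduced ones.

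For miR-218-5p and miR-129-2-3p, the 3 non-member names of most similar profile were sought among 517 by Pearson's r of log2 CPM over the 6 libraries, as a description only. For miR-218-5p they were miR-342-5p (r = 0.998), miR-342-3p (r = 0.995) and miR-511-3p (r = 0.988), which had 45, 670 and 318 reads induced and 0, 1 and 3 uninduced. For miR-129-2-3p they were miR-669l-5p (r = 0.982), miR-10b-5p (r = 0.975) and let-7j (r = 0.974). miR-10b-5p had 17.4 CPM ± 1.26 induced and 80.8 CPM ± 12.6 uninduced (SD, n = 3 each), whereas the log2 changes of miR-669l-5p and let-7j were -0.17 (SE 0.13) and -0.28 (SE 0.12) and did not pass. Such an r over 3 and 3 libraries follows the gap between the groups and ignores its size.

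A further 27 neural-associated microRNAs were counted in the same way. Of these, 14 had 0 reads in all 6 libraries, among them miR-137-3p and miR-488-3p, and 6 had at least 10 CPM, which were the 6 tested. edgeR called 0 higher and 1 lower, against 3.43% higher and 2.67% lower of all 525 names. The lower one was miR-132-3p, an activity-induced neuronal microRNA also known from immune cells. miR-132-3p had 38.5 CPM ± 5.46 induced and 66.1 CPM ± 6.00 uninduced (SD, n = 3 each). Its log2 change was -0.78 (SE 0.16, edgeR adjusted p = 0.020). An unadjusted p under 0.05 was reached by 3 of the 6 in edgeR, against 20.8% of all 525 names. DESeq2 called 0 of the 6 higher and 2 lower, against 3.23% higher and 3.57% lower of the 589 names it gave an adjusted p. The most abundant, miR-326-3p, had 109 CPM ± 37.4 induced and 72.4 CPM ± 14.9 uninduced, and miR-7a-5p had 66.6 CPM ± 11.4 and 50.8 CPM ± 12.4 (SD, n = 3 each). miR-330-3p had 22.8 CPM ± 0.69 induced and 19.4 CPM ± 0.55 uninduced (SD, n = 3 each), with a log2 change of 0.23 (SE 0.15). With the trial as a block 2 were higher, miR-326-3p and miR-7a-5p, and 2 lower, miR-132-3p and miR-212-3p of the same cluster (edgeR adjusted p of 0.00408, 0.00993, 2.8e-04 and 3.05e-04), against the 10.7% higher and 11.0% lower of all names in that fit. The median log2 change of the 6 was 0.03. The summed level of the 27 was 261 CPM ± 23.8 induced and 245 CPM ± 5.32 uninduced (SD, n = 3 each).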

How the data were processed

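The libraries came from total RNA prepared with the TruSeq small RNA kit and were read on a HiSeq 2000, per the labels' protocols. The authors deposited unnormalized counts (read_count, per the file headers) and CPM values, which equal the counts over the sum of all 2061 entries within 0.005 and were used only for that check. Reads were aligned to miRBase per the series' design text. Trim Galore 0.4.0, DESeq2 (listed as 2.1.8.0) and mm10 are named in the submitters' processing notes. Which counter and mismatch setting were used, and whether strand was, is not given in the sources used here.

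Of several entries of a mature name, that with most reads over the 6 libraries was used. This left out 17.5% of the counts summed over all entries, and entries of a name can repeat the same reads. Of the 7 members with at least 100 reads, 0 had counts within 1% of another name's in every library. The test of the counts was that of edgeR 4.0.16 under R 4.3.3 (TMM factors, filterByExpr with a minimum count of 10, glmQLFit with robust estimation, glmQLFTest, group only). DESeq2 1.42.0 was an alternative. The SE given with an edgeR log2 change is that change, without its sign, divided by the square root of the test's F statistic. The SE of DESeq2 comes from its own model and is not the same measure. Levels are TMM-scaled CPM with SD over libraries, and intervals are exact (Clopper-Pearson, or conditional for ratios). Limits for a count of 0, as a level or as a share, take 3 counts in its place and are not such intervals. Hairpins were placed with RefSeq GRCm38.p6 and GENCODE M21; mm10 is the same assembly.

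Named are all members, their antisense relatives and seed relatives, and the called and the 4 most abundant microRNAs of the other neural list. The 3 nearest profiles of a called member are named too. miR-212-3p, miR-137-3p, miR-488-3p, miR-486a-5p, miR-451a, miR-146b-5p and miR-146a-5p were named after their values were seen. The members and lists were chosen with earlier results of these data known. After subtraction of group means, libraries of the same trial correlated by 0.326, 0.45 and 0.526 across microRNAs. Induced and uninduced libraries of different trials correlated by -0.452 to 0.04. The trial was used as a block in an alternative fit only. The main test used the group alone and left this pairing out.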

Additional observations from a re-analysis of the deposited data

How the results depend on the processing

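miR-129-2-3p kept its direction and passed in all 13 alternative fits, with adjusted p from 1.08e-06 to 0.0328 (edgeR or DESeq2). miR-218-5p was called in each too, but its 0 uninduced reads fix its direction, so these fits say nothing of its stability. miR-129-5p (log2 change -1.14) passed with the replicate block (-1.15), without a filter (-1.15) and with entries summed (-1.14), and in none of the 6 fits that left out a library (adjusted p 0.0706 to 0.155, edgeR). The block changed no other member's call. Of the tested members, miR-218-5p included, 2 of 8 were called, against 3 of 8 with the block. Without a filter it was 3 of 13, and with entries summed 4 of 9. The summed entries also called miR-9-5p. Over all names 32 of 525 were called, against 114 of 525 with the block. Without a filter it was 48 of 1147, and with entries summed 29 of 529. When a library was left out, the calls ranged from 12 of 554 to 41 of 523. Leave-one-out values were -0.36 to 0.19 for miR-128-1-5p and -0.1904 to 0.00621 for miR-219a-5p, which had 0.0436 with its lowest entry. Summing entries counts reads several times. It gave a summed member level of 658 CPM induced and 697 CPM uninduced. The 5p shares (induced and uninduced) became 4.94% and 5.03% for miR-128 and 52.4% and 58.7% for miR-219a. The ratio of miR-218-5p to its floor of 3 counts became 32.9-fold. With the lowest entry the miR-219a shares were 27.9% and 31.9%. Scaling to the sum of all entries gave 357 CPM induced and 371 CPM uninduced. Under 20 reads a library, counting error limits every comparison. That was so for miR-9-5p in every library and for miR-129-2-3p in every induced library. It was also so for miR-129-5p in induced trials 2 and 3 and for miR-218-5p in induced trial 2.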
